A study of Mus musculus with 6 samples.

Results

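The genes examined were 8 microRNA (miRNA) genes known from regulatory T (Treg) cells or from T cell activation: Mir142, its host gene Mir142hg, Mir146, Mir146b, Mir155, Mir21a, Mir10a and Mir31. They were chosen by name for their known roles, with earlier results of these data known, and all 8 were among the 1241 features of the deposited miRNA table. Of the 8 genes, 5 had a count in any library, 3 had none, and 3 (Mir142, Mir146 and Mir142hg) reached 10 counts in 3 or more libraries, the minimum for the test between genotypes. The libraries held small RNA of Treg cells sorted from pooled thymi of 7-week-old mice, with 3 WT and 3 miR-181a/b-1-/- (KO) samples on a background that the labels write as C5BL6/N. The labels and the methods give the thymus as the source, whereas the results text of the study speaks of peripheral Treg cells, and the thymus is taken here. The KO mice lack the Mir181a-1 and Mir181b-1 genes, the labels name no treatment for either group, and the thymi of a sample were pooled, so that a replicate is a pool and not a single animal.

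A miRNA gene is transcribed as a hairpin, from which Drosha and Dicer cut a short mature strand that guides Argonaute to messenger RNAs. Pairing with the target rests mainly on the seed, bases 2 to 8 of the mature strand, and Treg cells that cannot make miRNAs lose their suppressive function. miR-142 is made in nearly all blood cells, miR-146a and miR-155 are induced by NF-kB and by antigen receptor signals, miR-21 rises on T cell activation, miR-10a is known from Treg cells exposed to retinoic acid, and miR-31 has been described in human cells as a repressor of Foxp3.

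The mature strands are shown because their seeds tell which of these genes could act on the same targets, and because a short read can be placed on 1 gene only where its sequence is not shared. Each is written 5′ to 3′ with the seed in capitals, as RefSeq gives it for GRCm38.p6, where all 7 hairpins and their 14 mature strands were found. For Mir142, whose arms are both well known as mature products, both are given, and for the other genes the 5p strand.
miR-142a-5p: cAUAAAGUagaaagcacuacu
miR-142a-3p: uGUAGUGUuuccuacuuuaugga
miR-146a-5p: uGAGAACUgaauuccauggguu
miR-146b-5p: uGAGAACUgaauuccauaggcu
miR-155-5p: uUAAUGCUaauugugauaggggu
miR-21a-5p: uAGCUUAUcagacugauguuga
miR-10a-5p: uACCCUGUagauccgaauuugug
miR-31-5p: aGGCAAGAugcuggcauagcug

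Among the 8 strands, a seed was shared once, by miR-146a-5p and miR-146b-5p, which differ at 2 of 22 positions (G18A and U21C, from the first to the second, counted from 1 at the 5′ end). Their hairpins, Mir146 and Mir146b, share a run of 21 bases, and a read that lies within it has no unique place. Outside the 8 genes, the seed of miR-10a-5p was also that of miR-10b-5p, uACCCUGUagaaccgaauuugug, which differs from it by U12A alone, and the seed of miR-21a-5p was also that of the miRNA of Mir21c. Mir10b and Mir21c each had 0 counts in all 6 libraries, as did Mir10a and Mir21a themselves.

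The counts available were small. The libraries held 168293 to 307840 counts on genes, of which 1359 to 3422 fell on the miRNA features, and Mir150, the most abundant of them, took 42.6% to 57.6% of the miRNA counts. The miRNA features, the denominator of the shares below, made up 1.52%, 1.37% and 1.11% of the gene counts in WT and 1.08%, 0.697% and 1.11% in KO libraries, so that no KO library lay above a WT library. Between 75.7% and 80.3% of the records of a library had been given to no gene by the authors' counting, including 20.4% to 24.0% that fell on more than 1 gene and 41.7% to 46.2% without a unique alignment. Mir181a-1 had 1 count in WT replicate 2 and 0 in the other 5 libraries, and Mir181b-1 had 0 in all 6, so the deletion could not be read from these counts. RNA fragments of all 10 Treg marker genes were present, with 880 counts in WT and 857 in KO libraries, among them Foxp3 (74 and 75) and Ikzf2 (283 and 308), whereas Ctla4 had 1 and 0. Of 9 erythroid markers, Mir451a and Mir144 included, none had a count. Of 7 myeloid markers 2 had a count, with 5 counts in WT and 7 in KO libraries, mostly on Cd74, while Mir223 was at 0. Of 3 endothelial markers, Pecam1 had 20 and 17 counts and Mir126a and Cdh5 were at 0, and 2 of 5 B cell markers, Ighm and Cd79b, summed to 31 and 24. Fragments of double-positive thymocyte markers came to 0.410 to 2.67 per 100000 gene counts in WT and 2.60 to 3.08 in KO libraries, where 5 of the 8 listed genes had a count and the list summed to 9 and 19 counts. Their part in the values below was not tested.

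Mir142 had the most counts of the 8 genes and ranked 9th of the 1241 features by its total of 286. Its hairpin lies on the forward strand of chromosome 11 (GRCm38, 87756864 to 87756927). It had 58, 69 and 33 counts in the WT libraries, in the order of the replicate numbers, and 19, 27 and 80 in the KO libraries. As shares of the miRNA counts these were 1.72%, 2.25% and 1.22% in WT and 1.05%, 1.99% and 2.34% in KO libraries. The lowest and the highest share were both from KO libraries, and the WT values lay between them. The mean shares of WT and KO libraries were 1.73% ± 0.515 and 1.79% ± 0.667 (SD, n = 3 each, exact two-sided permutation test, p = 0.9, where 3 against 3 libraries cannot give a p below 0.1). The difference in mean share, KO minus WT, was 0.0611 percentage points and turned negative without WT replicate 3 (-0.195), KO replicate 2 (-0.0369) or KO replicate 3 (-0.212). In bulk samples such as these, fewer cells of a type and less RNA per cell cannot be told apart.

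Mir146 encodes miR-146a, which restrains NF-kB signalling through Traf6 and Irak1. It lies on chromosome 11 from 43374397 to 43374461 on the reverse strand, overlaps no other annotated gene, and ranked 13th with 130 counts. WT replicate 1 had the most, with 46 counts. The other WT libraries had 20 and 14, and the KO libraries 11, 8 and 31. Its share in WT replicate 1, 1.37% (95% Wilson interval 1.03% to 1.82%), lay above the intervals of the other WT libraries, 0.652% (0.422% to 1.004%) and 0.517% (0.308% to 0.866%). The shares in the KO libraries, 0.606%, 0.589% and 0.906%, fell within the WT range. The interval of KO replicate 3, 0.639% to 1.28%, overlapped that of WT replicate 1. The means of WT and KO libraries were 0.845% ± 0.456 and 0.7003% ± 0.178 (SD, n = 3 each, exact two-sided permutation test, p = 0.8). Without WT replicate 1 the difference in mean share, KO minus WT, turned from -0.144 to 0.116 percentage points. Wilson intervals treat each read as independent, which PCR copies are not, and so they cover counting error only.

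Mir142hg, a long non-coding RNA gene from 87755577 to 87757270 on the same strand of chromosome 11, carries the Mir142 hairpin in its intron. None of the 64 bases of the hairpin lie in the 269 exonic bases of the host, so that counts on the host are fragments of its exons and not of the hairpin. It had 13, 11 and 9 counts in WT and 6, 10 and 17 in KO libraries. The WT shares were close together, at 0.386%, 0.358% and 0.332%, while those of the KO libraries were 0.331%, 0.736% and 0.497%. Their means were 0.359% ± 0.0269 and 0.521% ± 0.204 (SD, n = 3 each, exact two-sided permutation test, p = 0.4). The difference, KO minus WT, was 0.162 percentage points, from 0.0549 without KO replicate 2 to 0.257 without KO replicate 1, where the groups no longer overlapped. The hairpin had 2.70 to 6.27 times as many counts as the host in a library, with a mean ratio of 4.80 ± 1.34 in WT and 3.52 ± 1.05 in KO libraries (SD, n = 3 each).

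**Figure D1:**
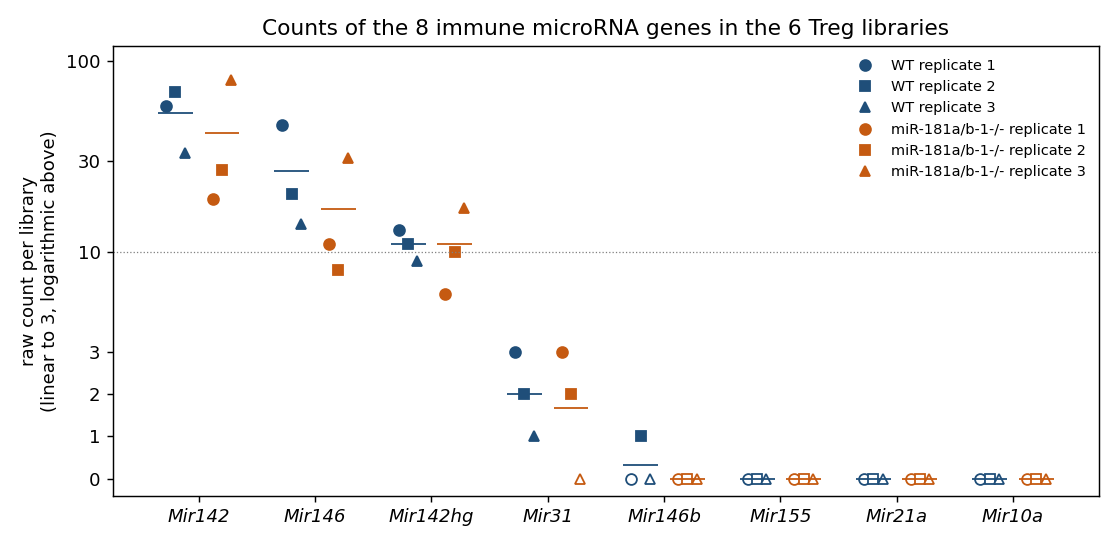
Raw counts of the 8 genes in each of the 6 libraries, on an axis that is linear up to 3 counts and logarithmic above. Blue marks are WT and orange marks KO libraries, the shape gives the replicate, open marks are counts of 0, short lines are group means and the dotted line is the minimum of 10 counts. Mir142 lay between 19 and 80 counts, Mir31 did not exceed 3, and Mir155, Mir21a and Mir10a were at 0 throughout.

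Mir31, on the reverse strand of chromosome 4 from 88910557 to 88910662, had 11 counts in all. There were 3, 2 and 1 in WT and 3, 2 and 0 in KO libraries, so that no library rose above the 3 counts that a count of 0 allows. Its mean shares were 0.0637% ± 0.0261 and 0.104% ± 0.0907 (SD, n = 3 each, exact two-sided permutation test, p = 0.5). The difference, KO minus WT, was 0.0405 percentage points. It was 0.00987 without KO replicate 1, 0.0190 without KO replicate 2, 0.0271 without WT replicate 3 and 0.0926 without KO replicate 3. The last of these leaves out the library with 0 counts, so the groups no longer overlapped, with all counts still within the floor of 3. After Benjamini-Hochberg adjustment over the 4 genes with at least 10 counts in all, which were Mir142, Mir146, Mir142hg and Mir31, each of these p-values was 0.9 by the same exact test.

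**Figure D2:**
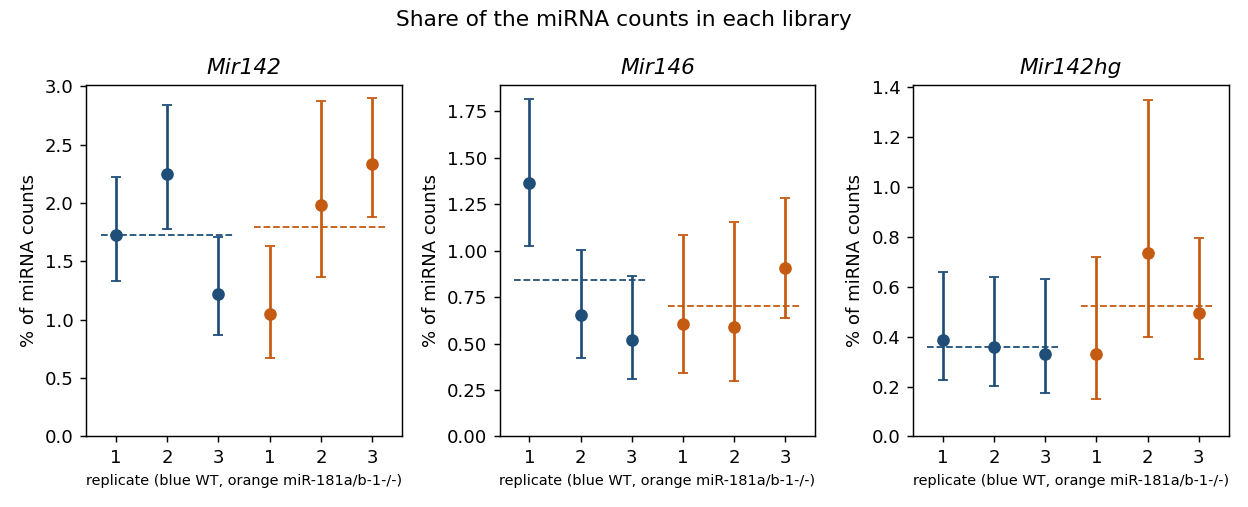
Share of the miRNA counts, in percent, taken by Mir142, Mir146 and Mir142hg in each replicate, with WT in blue and KO in orange. Points are libraries, bars are 95% Wilson intervals for counting error and dashed lines are group means. The genotypes overlapped for all 3 genes, and WT replicate 1 was highest for Mir146 at 1.37%.

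Mir146b had 1 count, in WT replicate 2, and 0 in the other 5 libraries. It encodes the strand that shares its seed with miR-146a and lies within an intron of Mfsd13a (chromosome 19, 46342762 to 46342870, forward strand), a gene with 0 counts. No read was counted on Mir155, Mir21a or Mir10a in any of the 6 libraries. Taking 3 counts as the most that a count of 0 allows, their share of the miRNA counts could reach 0.0877% in the deepest library, KO replicate 3, and 0.221% in the shallowest, KO replicate 2. These limits hold for reads that were counted, and reads that fell on more than 1 gene or had no unique alignment were not.

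The annotation around the hairpins was therefore set beside the counts. HTSeq, the authors' counting tool, gives an ambiguous read to no gene. Whether strand was used and which annotation release was counted are not given in the sources used here, and positions were taken from GENCODE vM21. All 65 bases of Mir155 (chromosome 16, 84714140 to 84714204, forward strand) lie in an exon of its own host gene Mir155hg on the same strand. Mir155hg itself had 2, 6 and 3 counts in WT and 2, 0 and 2 in KO libraries. All 92 bases of Mir21a (chromosome 11, 86584067 to 86584158, reverse strand) lie in an exon of Vmp1, an autophagy gene on the same strand, which had 4, 7 and 6 counts in WT and 3, 5 and 7 in KO libraries. Fragments of both surrounding transcripts were thus present in both genotypes while the hairpins within them were at 0. A read of either hairpin would fall on both annotated genes, and the part of this in the counts of 0 was not tested.

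Mir10a (chromosome 11, 96317165 to 96317274, forward strand) was at 0 and overlaps no annotated gene. Mir146 has no overlap either and was counted in all 6 libraries. The Mir10a hairpin shares a run of 15 bases with Mir10b, which is shorter than the 23 bases of miR-10a-5p. Whether the placement of reads bears on the 0 of Mir10a was not tested. Mir31 lies with all 106 bases in an exon of AL805899.1, a same-strand long non-coding RNA of vM21, but that gene was not among the 54547 genes of the count files. Mir142 is covered over all 64 bases by Mir142b, a hairpin annotated on the opposite strand of the same place, which had 0 counts. Mir142 had 286 counts, and whether strand bears on this was not tested.

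**Figure D3:**
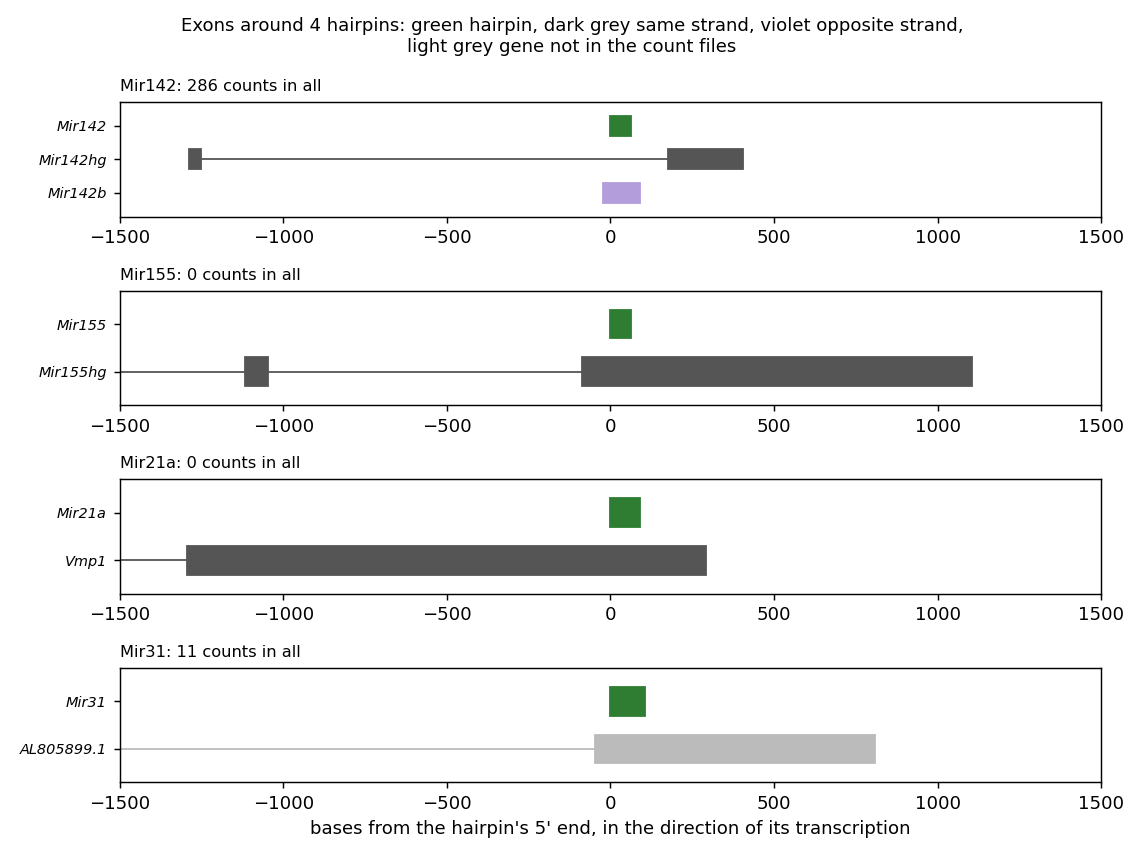
Annotated exons around the hairpins of Mir142, Mir155, Mir21a and Mir31, in bases from the 5′ end of the hairpin along its direction of transcription. Green boxes are hairpins, dark grey boxes same-strand exons, violet boxes opposite-strand genes, light grey boxes a gene outside the count files, and lines are introns. Mir155 and Mir21a, with 0 counts, sit inside a same-strand exon, and Mir142, with 286 counts, sits in an intron of Mir142hg.

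Hairpins of the whole table were then grouped by their overlap with exons. Of 179 hairpins wholly inside a same-strand exon of another counted gene, 2 (1.12%) had a count in any library, against 146 of 823 (17.7%) that overlap no exon of another gene. The latter held 89.98% of all miRNA counts. The 2 exceptions, Mirlet7a-1 with 52 and Mirlet7f-1 with 45 counts, were singled out after their values were seen. Of 89 hairpins partly in a same-strand exon, 14 (15.7%) had a count, and of 63 inside an opposite-strand exon only, 7 (11.1%), Mir142 among them. These shares describe annotated hairpins, many of which may not be expressed in Treg cells, and neighbouring hairpins share transcripts, so no test was made.

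**Figure D4:**
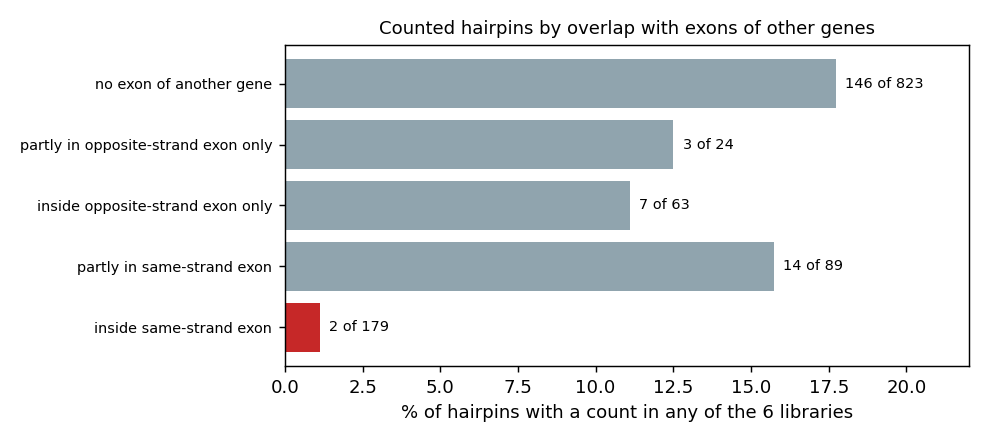
Share of annotated hairpins, in percent, with a count in any of the 6 libraries, by their overlap with exons of other counted genes. Bars start at 0 and carry the number counted of the number in the class. The bar for hairpins inside a same-strand exon, the class of Mir155 and Mir21a, stood at 1.12%, and that for hairpins without overlap, the class of Mir146, Mir146b, Mir10a and, as the gene around it was not counted, Mir31, at 17.7%.

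Part of these hairpins belong to a list of 54 other miRNA genes known from T cells. Of its 17 hairpins inside a same-strand exon, 0 had a count, and of its 27 without overlap, 21 did, with 10749 counts among them. Of its 9 partly in a same-strand exon, 6 had a count, with 34 counts, and its 1 hairpin inside an opposite-strand exon had none. For the first class the 0 covers reads counted to 1 gene only. The list is drawn from the same table and so is no independent count.

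Levels of the counted genes were ordered per 1000 miRNA counts and per 100 exonic bases, over all 6 libraries. Mir142 was at 27.5 ± 8.35 (range 16.4 to 36.5), Mir146 at 11.9 ± 4.92 (7.95 to 21.01), Mir142hg at 1.64 ± 0.585 (1.23 to 2.74) and Mir31 at 0.792 ± 0.601 (0 to 1.56; SD, n = 6 each). The order was read from these same values, so its steps are given as descriptions without a test. Mir142 exceeded Mir146 in 6 of 6 libraries, although their ranges overlapped, and Mir146 exceeded Mir142hg in 6 of 6. Mir142hg exceeded Mir31 in 5 of 6 libraries, with overlapping ranges. The last steps depend on the scaling for length, since by counts alone Mir146 exceeded Mir142hg in 5 of 6 libraries and Mir142hg exceeded Mir31 in 6 of 6. This scaling is not alike for hairpins and host. Mature strands are shorter than their hairpins, and counts on the host are fragments of its exons. The ratio of Mir142 to Mir146 counts ran from 1.26 in WT replicate 1 to 3.45 in WT replicate 2.

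The question of the study's design is whether the loss of miR-181a/b-1 changes other miRNAs in Treg cells. For the genes described here no difference was detected at this depth. In edgeR's quasi-likelihood test over the 23 miRNA features with enough counts, 0 of the 3 genes tested were lower and 0 higher in KO against WT libraries at an adjusted p under 0.05, while 4.35% of the 23 features were called. The same 0 held at an unadjusted p under 0.05 and with DESeq2. The normalized values of the genotypes overlapped for each of the 3, while 8.70% of the 23 features had groups that did not overlap. When the 1391 genes with enough counts were tested together, the share called was 0%, and the 3 genes were again not called.

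The log2 fold change of Mir142, KO over WT, was 0.00349 (standard error 0.37, 95% interval -0.73 to 0.73, adjusted p = 0.992 by edgeR). TMM-normalized values, per 1000 counts on the 23 features, were 18.5, 26.7 and 12.9 in WT and 11.9, 18.2 and 26.6 in KO libraries. For Mir146 they were 14.6, 7.74 and 5.45 in WT and 6.91, 5.39 and 10.3 in KO libraries, with a log2 fold change of -0.26 (standard error 0.45, 95% interval -1.16 to 0.64, adjusted p = 0.933 by edgeR). For Mir142hg they were 4.14, 4.26 and 3.51 in WT and 3.77, 6.74 and 5.65 in KO libraries, with a log2 fold change of 0.44 (standard error 0.54, 95% interval -0.64 to 1.52, adjusted p = 0.763 by edgeR). The median over all 23 features was 0.07. The intervals leave room for changes of these genes in either direction, and some signs rested on single libraries. Mir142 was at -0.06, -0.01 and -0.39 without WT replicate 1, 2 or 3 and at -0.58 without KO replicate 3, and Mir146 was at 0.22 without WT replicate 1.

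Part of the values depended on what they were measured against. Normalized over all genes, the miRNA features as a group shifted to a median log2 fold change of -0.27, and Mir142 was then at -0.36, Mir146 at -0.65 and Mir142hg at 0.06 (adjusted p = 0.980, 0.980 and 0.993 by edgeR). Relative to that shift, the host gene lay above and Mir146 below the median under both scalings, and Mir142 lay below it, although none differed between genotypes by the test. In the fit without a minimum count, over 178 features, the log2 fold change of Mir31 was -0.02 ± 0.88 (standard error, 95% interval -1.74 to 1.71), and no fold is given for Mir146b, with its single count.

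**Figure D5:**
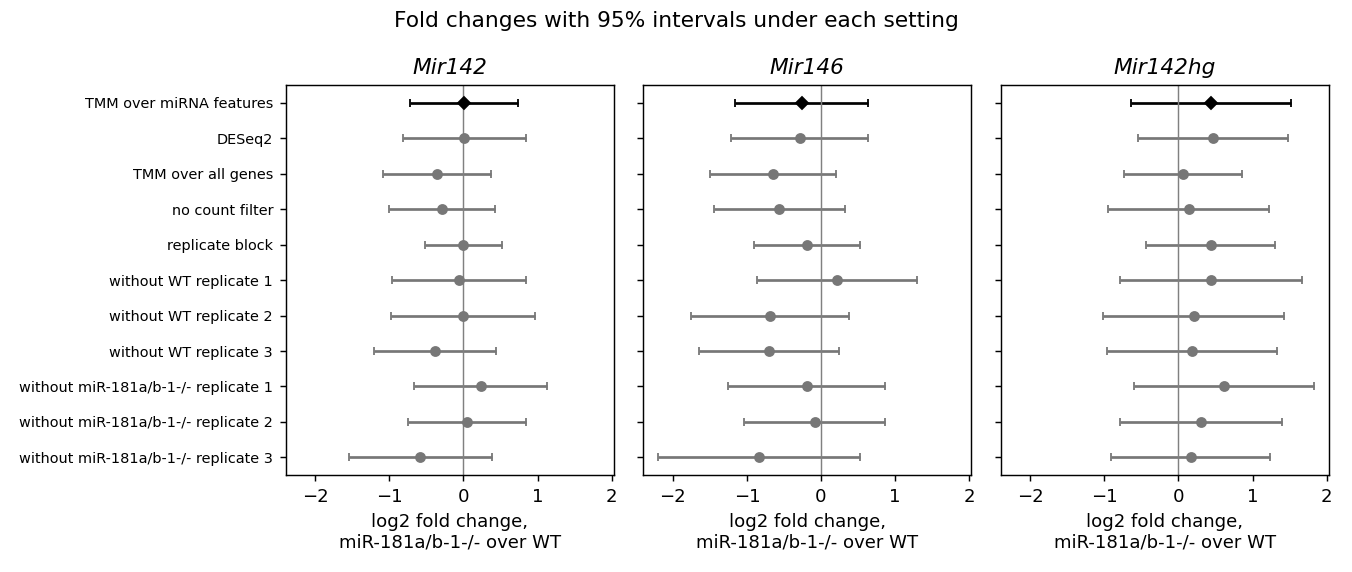
Log2 fold changes, KO over WT, of Mir142, Mir146 and Mir142hg with 95% intervals under each setting, with edgeR's test normalized by TMM over the miRNA features in black at the top. All intervals shown include 0. Mir146 moved to 0.22 without WT replicate 1, and Mir142 to -0.58 without KO replicate 3.

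Over the 6 libraries, the tested feature whose pattern was most like that of Mir142 was Mirlet7f-2, with a root-mean-square difference of 0.377 between their centred log2 CPM, the log of a library's counts scaled to a common total, followed by its own host gene Mir142hg, also at 0.377, and Mir342 at 0.423. The median over the 22 other features was 0.591. For Mir146 the nearest were Mirlet7g at 0.275, Mir342 at 0.319 and Mirlet7f-2 at 0.356 (median 0.640). For Mir142hg they were Mir33 at 0.285, Mir484 at 0.324 and Mir328 at 0.357 (median 0.521), and Mir142 was not among its nearest 3. The features share libraries and depth, and these distances are descriptions without a test.

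Of the list of 54 other T cell miRNA genes, 27 had a count and 6 passed the minimum. Among these 6, 0 were lower and 0 higher, 3 log2 fold changes were negative and 3 positive, the median was -0.08 against 0.07 over all 23 features, and the smallest adjusted p was 0.691 by edgeR. The 2 with the most counts were Mir150, a miRNA of mature lymphocytes (-0.22, adjusted p = 0.763), and Mir342, in an intron of Evl (-0.59, adjusted p = 0.691). Mir15b, named after its values were seen, had the lowest of the 6 log2 fold changes (-0.74, adjusted p = 0.727 by edgeR), and its normalized values, 10.9 to 16.5 in WT and 6.74 to 9.42 in KO libraries, did not overlap. The paper, which used DESeq2 and also ran qRT-PCR, reports miR-15b, miR-150 and miR-342 as moderately lower in KO Treg cells. The genes tested here, at 0.00349, -0.26 and 0.44, spread on both sides of the median as the 6 listed genes did.

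Messenger RNAs known as targets of these miRNAs left fragments in the libraries too, which do not measure the level of the messenger RNA. All 13 listed genes had a count, with 349 counts in WT and 329 in KO libraries. Socs1, the target of miR-155 that limits cytokine signalling, had 3, 6 and 13 counts in WT and 3, 5 and 16 in KO libraries. Pdcd4, a target of miR-21, had enough counts for the test. It had 41, 32 and 40 counts in WT and 40, 25 and 39 in KO libraries, and its log2 fold change was -0.02 ± 0.29 (standard error, edgeR over all genes, adjusted p = 0.998). The counts of the genotypes overlapped, and it did not pass the test.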

How the data were processed

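Small RNA of sorted Treg cells was made into libraries with a template-switching small RNA kit (3 WT and 3 miR-181a/b-1-/-, or KO, samples). Per the paper's methods, the authors trimmed adapters, filtered out ribosomal RNA with Bowtie 2, used STAR for alignment and HTSeq for counting genes (tool versions are not given here, and the submitters' processing notes name GRCm38.p6). The deposited counts per gene were used as they stand. A second deposited table covers 1241 miRNA features. Its signal columns are the counts that the authors divided by 1 size factor per sample, which was checked here. It also holds the DESeq2 fold changes and p-values of the authors, which were not used. Of the 54547 gene identifiers, 53620 matched GENCODE vM21 without their version.

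Counts were tested with edgeR 4.0.16 in R 4.3.3 (quasi-likelihood, TMM, no covariate, Benjamini-Hochberg) on features with 10 counts or more in 3 or more libraries. Standard errors came from the log2 fold change and the F statistic. DESeq2 1.42.0, other normalizations and filters, left-out libraries and the replicate number as a block were alternatives. Shares were compared by exact permutation tests (SciPy 1.17.1), with 95% Wilson intervals and a floor of 3 counts for a count of 0. The script of the edgeR test, and not that of the permutation tests, was first tried on simulated counts with known changes.

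Each library held 1359 to 3422 miRNA counts, which limits precision. Replicates are labelled as biological. Counts are per gene, so the arms of a hairpin were not separated. The values of some listed genes are not reported here. The genes and lists were chosen with earlier results of these data known. Named genes are the 8 listed, genes overlapping their hairpins, hairpins sharing 15 or more bases or a seed with them, the 3 features nearest in pattern, Mir150, and genes of the lists by highest count. Mirlet7a-1, Mirlet7f-1, Mir15b, the deleted genes and further marker and target genes were named outside that rule, after their values were seen. The epithelial list (2 of 9 genes with a count, 2 counts in WT and 1 in KO libraries) and the T lineage list (10 of 10, 1201 and 1046) were counted as well.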

Additional observations from a re-analysis of the deposited data

How the results depend on the processing

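Of the genes described that had enough counts to be tested, 0 were lower and 0 higher in KO libraries in each of the 16 alternatives (3 tested in most, 5 without a minimum count and 1 with 10 counts required in every library). Over its alternatives the log2 fold change of Mir142 ran from -0.58 to 0.23 (15 alternatives, adjusted p 0.373 to 0.999), that of Mir146 from -0.84 to 0.22 (14, 0.373 to 0.983) and that of Mir142hg from 0.06 to 0.61 (14, 0.627 to 0.993), by edgeR or DESeq2. Mir142 was negative normalized over all genes (-0.36), without a minimum count (-0.29) and with the replicate block over all genes (-0.37, added after seeing the data). Leaving out 1 library at a time gave -0.58 (without KO replicate 3) to 0.23 for Mir142, -0.84 to 0.22 (without WT replicate 1) for Mir146 and 0.16 to 0.61 for Mir142hg. The difference in the Mir142 share was 0.0611 percentage points, -0.00643 as a share of counts on all genes, -0.368 with Mir150 left out of the total and -0.212 to 0.433 with 1 library left out. For Mir142hg it was 0.162, -7.80e-05 as a share of counts on all genes, 0.202 with Mir150 left out and 0.0549 to 0.257 with 1 library left out. For Mir146 it was -0.144, -0.00489, -0.459 and -0.308 to 0.116, and for Mir31 0.0405, 5.19e-05, 0.0552 and 0.00987 to 0.0926, in the same order. The number of miRNA features higher in KO was 1, and 0 with edgeR over all genes, without a minimum count and with the replicate block over all genes. It was 0 to 1 with 1 library left out (0 without KO replicate 3 or any 1 of the WT libraries). The cause was not tested. With 10 counts required in every library, Mir142 alone was tested (0.19).

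The replicate numbers were not taken as pairs in the main test. Deviations of same-numbered libraries from their group means had correlations of -0.0427, 0.472 and 0.284 over the 23 features. Over all genes these were 0.231, 0.0812 and 0.182. Over all genes, though not over the 23 features, each library correlated best with its own number, a hint from the data and not from the design. With the replicate block, 0 miRNA features were lower and 1 higher, and Mir142 was at 0.000276, Mir146 at -0.19 and Mir142hg at 0.43 (adjusted p = 0.999, 0.983 and 0.689 by edgeR).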
